A study of Arabidopsis thaliana with 16 samples.

Results

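The 10 Arabidopsis genes described here make and control the defence hormone salicylic acid. They are named by locus as genes of the known pathway. The list was drawn up with earlier results of these data in view, so its counts are a description and no independent evidence of a direction. All 10 were found among the 32833 genes of the seedling table and the 32548 genes of the leaf and shoot apex table. All 10 passed the filter on low values in both tables (at least 1 unit of signal in at least 2 libraries). RNA was sequenced from 16 libraries in 8 groups of 2. Seedlings of 2 weeks were wild type (WT), the double mutant tcx5-/-tcx6-/- (written tcx5/6), the mutant ddm1-/- (ddm1) or the triple mutant tcx5-/-tcx6-/-ddm1-/- (tcx5/6 ddm1). Leaves of 1 month and shoot apical meristem (SAM) samples came from WT and tcx5/6 plants. Plants grew on MS plates at 22 °C with 16 h of light and 8 h of dark. The labels name no alleles, no generation of ddm1 inbreeding and no separate age for the SAM samples, and no statement that the replicates were separate cultures. P-values therefore measure the spread between these samples, which may be technical. The CXC-domain proteins TCX5 and TCX6 belong to DREAM, a complex that represses cell cycle genes. DDM1 remodels chromatin so that DNA methylation is maintained.

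Salicylic acid is made in leaves mainly from chorismate in the plastid. ICS1, an isochorismate synthase, takes the first step, EDS5 is the transporter that exports isochorismate across the plastid envelope, and PBS3 joins it to glutamate in the cytosol to give a conjugate that breaks down to salicylic acid. EDS1, PAD4 and SAG101 are lipase-like proteins: EDS1 pairs with either partner, and the pairs relay signals from intracellular immune receptors. CBP60g and SARD1 are transcription factors that activate ICS1 and its neighbours in the pathway. ALD1, an aminotransferase, and FMO1, a flavin monooxygenase, make pipecolic acid and its N-hydroxy form, the companion signal in systemic resistance.

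In the TAIR10.1 annotation the genes lie apart from each other. ICS1 (AT1G74710) is at chr1:28070295-28074177 on the plus strand, EDS5 (AT4G39030) at chr4:18185437-18189224 on the plus strand, and PBS3 (AT5G13320) at chr5:4267456-4271064 on the plus strand. EDS1 (AT3G48090) is at chr3:17755329-17758147 on the minus strand, PAD4 (AT3G52430) at chr3:19431095-19434450 on the plus strand and SAG101 (AT5G14930) at chr5:4828499-4830982 on the plus strand. CBP60g (AT5G26920) is at chr5:9475679-9478777 on the plus strand and SARD1 (AT1G73805) at chr1:27744790-27749248 on the minus strand. FMO1 (AT1G19250) is at chr1:6650476-6653195 on the minus strand and ALD1 (AT2G13810) at chr2:5768417-5772266 on the plus strand. Whether the authors counted by strand is not stated in the labels, which touches a pair of members. The exons of EDS5 overlap those of AT4G39040 on the opposite strand by 213 bases, and those of SARD1 overlap AT1G73790 by 441 bases.

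The 250 bases before the annotated start of 4 members are shown because they carry the letters that the pathway's own regulators are known to bind. Sequences are 5′ to 3′ on the strand of the gene, in TAIR10.1. SARD1 (chr1:27749249-27749498, minus strand) is shown with the W box TTGAC, the core bound by WRKY factors, in capitals on either strand. ICS1 (chr1:28070045-28070294, plus strand), FMO1 (chr1:6653196-6653445, minus strand) and ALD1 (chr2:5768167-5768416, plus strand) are shown with GAAATTT, the element bound by CBP60g and SARD1, in capitals on either strand.
SARD1: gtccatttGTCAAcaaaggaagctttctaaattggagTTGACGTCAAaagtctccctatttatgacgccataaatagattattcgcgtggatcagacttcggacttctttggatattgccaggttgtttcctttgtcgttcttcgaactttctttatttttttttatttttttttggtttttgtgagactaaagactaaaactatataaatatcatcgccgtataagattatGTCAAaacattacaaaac
ICS1: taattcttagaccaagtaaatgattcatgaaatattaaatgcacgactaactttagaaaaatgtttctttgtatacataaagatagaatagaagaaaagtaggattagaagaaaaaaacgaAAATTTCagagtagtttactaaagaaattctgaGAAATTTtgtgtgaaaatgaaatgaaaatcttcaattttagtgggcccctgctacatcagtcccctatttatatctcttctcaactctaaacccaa
FMO1: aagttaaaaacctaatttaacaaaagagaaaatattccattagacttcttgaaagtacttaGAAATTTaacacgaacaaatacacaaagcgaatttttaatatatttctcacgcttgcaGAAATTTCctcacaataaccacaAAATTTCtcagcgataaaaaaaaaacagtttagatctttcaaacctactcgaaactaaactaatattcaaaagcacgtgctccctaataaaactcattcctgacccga
ALD1: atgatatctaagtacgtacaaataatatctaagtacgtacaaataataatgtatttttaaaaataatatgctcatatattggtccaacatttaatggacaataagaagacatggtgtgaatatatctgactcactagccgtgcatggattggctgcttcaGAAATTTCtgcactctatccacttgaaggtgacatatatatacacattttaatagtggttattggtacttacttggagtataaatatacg

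Both strands of the same window were searched for all 10 members. GAAATTT was present in 3 of 10, with 2 matches in ICS1, 4 in FMO1 and 2 in ALD1, against 12.5% of 27438 promoters in the annotation. Where the run reads GAAATTTC, as in ALD1, matches on the 2 strands overlap and both are counted. The W box was present in 4 of 10 (EDS5, EDS1, SAG101 and SARD1) against 44.9% of promoters. SARD1 held 4 W boxes and 3 matches to TGACG, the core bound by TGA factors and present in 18.6% of promoters, and the matches to the 2 motifs overlap at the capitals TTGACGTCAA. The E2F core TTCCCGC, bound by the E2F subunits of DREAM, was present in 0 of 10 members and in 1.21% of promoters. TTTGAA, the element bound by CXC proteins such as TCX5, was present in 3 of 10 (EDS5, SAG101 and FMO1) and in 38.8% of promoters. A match describes these letters and is not a binding site, and a missing match says only that the letters are not in this window.

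Values below are the deposited signal, read counts that the authors adjusted for library size and did not divide by gene length. Seedling libraries summed to 31.13 to 38.82 M signal and the others to 45.35 to 59.33 M, and the sequenced depth behind it is unknown. Log2 changes are differences of log2(signal + 1) with standard errors from limma-trend on each whole table, with Benjamini-Hochberg adjustment. Calls were made at an adjusted p under 0.05. In these bulk samples, fewer cells of a type and less RNA per cell cannot be told apart. In seedlings DDM1 read 119 and 145 in ddm1 against 709 and 648 in WT, while the triple mutant read 569 and 654 and tcx5/6 1925 and 2061. TCX5 was 486 and 497 in WT and 240 and 268 in tcx5/6, whereas TCX6 was higher in tcx5/6 (783 and 760) than in WT (163 and 152). The position of the mutations is not given, so RNA of TCX6 does not check that label. DDM1 in the triple mutant overlapped WT and lay below tcx5/6, so its RNA level against WT does not check the ddm1 label there.

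In WT seedlings the genes of the EDS1 node and ICS1 were abundant and the companion signal's genes were scarce. Per kb of exon, mean signal in WT seedlings was 377 for EDS1, 375 for ICS1 and 240 for PAD4, then 117 for SAG101, 88.2 for EDS5, 69.1 for PBS3 and 63.8 for CBP60g. SARD1 had 26.8, FMO1 19.0 and ALD1 15.1 signal per kb. In WT leaf the order was another one. CBP60g led with 5299 signal per kb, and PAD4, EDS1 and SAG101 followed within 1773 to 1827. In ddm1 seedlings PAD4 led with 841, and SARD1 reached 509 signal per kb. Levels of the 2 tables were set by the authors separately, so only the order within a group is read across them.

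**Figure D1:**
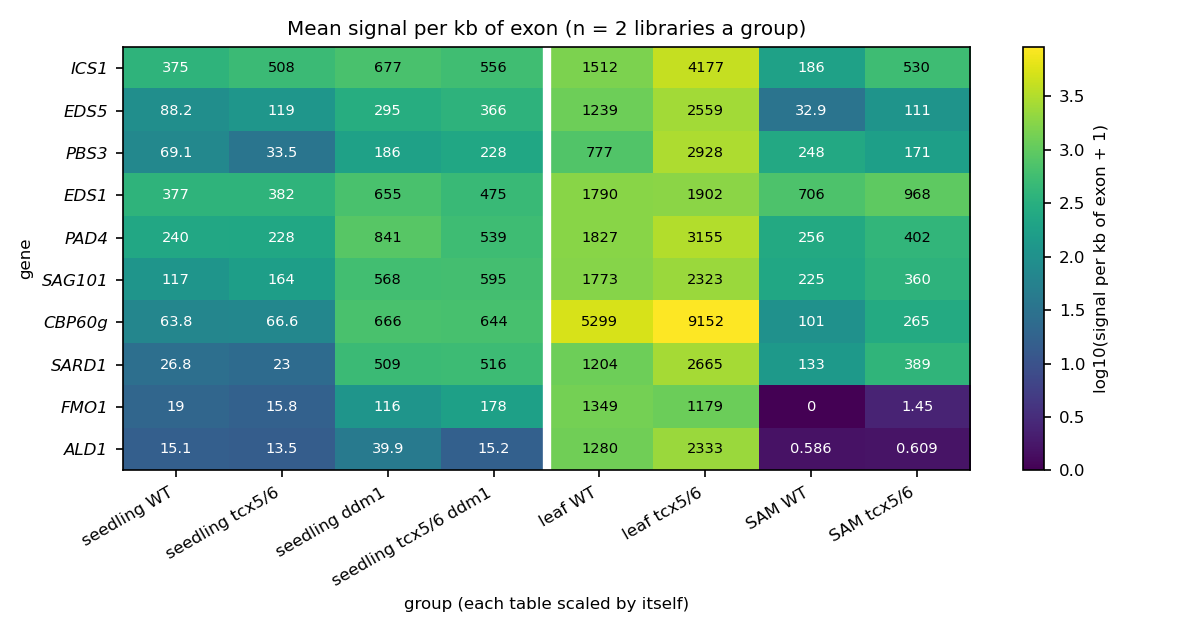
Mean signal per kb of exon (colour, log10 of the value plus 1) of the 10 genes (rows) in the 8 groups (columns, n = 2 libraries each). In WT leaf CBP60g is highest with 5299, and in WT SAM FMO1 is at 0 while EDS1 is highest with 706.

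In ddm1 seedlings 9 of the 10 genes rose against WT and 0 fell, where 26.3% of the 25016 genes tested rose and 23.3% fell (49.6% in all). The median change of the 10 was a log2 of 1.77, against 0.00 over all genes. The transcription factors rose most, the lipase-like partners and the later synthesis steps rose by an intermediate amount, and ICS1 and EDS1 rose least. SARD1 read 71.1 and 57.4 in WT and 903 and 1535 in ddm1, a rise of 4.18 ± 0.32 (adjusted p = 1.8e-05) and 19.0 times the WT mean. CBP60g read 154 and 139.9 in WT and 1254 and 1815 in ddm1, a rise of 3.35 ± 0.23 (adjusted p = 9.9e-06). For both factors, each ddm1 library lay far above both WT libraries, and replicate 2 of ddm1 was the higher.

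The synthesis genes moved less. ICS1 read 917 and 718 in WT and 1423 and 1529.7 in ddm1, a change of 0.86 ± 0.15 (adjusted p = 0.0018). EDS5 rose from 212 and 187 to 707 and 628, a change of 1.74 ± 0.21 (adjusted p = 0.0002). PBS3 rose from 191 and 171 to 539.7 and 434.5, a change of 1.42 ± 0.19 (adjusted p = 0.00036). No ddm1 library overlapped a WT library for these 3 genes. AT4G39040, which shares exon bases with EDS5 on the other strand, was lower in ddm1 (1753 and 1812) than in WT (2599 in both libraries), and AT1G73790, beside SARD1, stayed at or near 0.

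Within the EDS1 node all 3 genes rose, with larger changes for the partners of EDS1 than for EDS1. SAG101 read 259 and 255 in WT and 1182 and 1321 in ddm1, a change of 2.28 ± 0.10 (adjusted p = 1.1e-06). PAD4 went from 549 and 533 to 1741 and 2053, a change of 1.80 ± 0.14 (adjusted p = 1.6e-05). EDS1 went from 966 and 959.5 to 1395 and 1946, a change of 0.77 ± 0.15 (adjusted p = 0.0026). The difference between these genes was not tested. AT3G48080, which lies 138 bases from EDS1 and carries the same annotation of an alpha/beta-hydrolase, rose by 2.01, and exact runs of at least 50 bases shared with other places in the genome cover 2.82% of the EDS1 exon bases.

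The companion signal's genes parted. FMO1 read 40.8 and 32.1 in WT and 169 and 277 in ddm1, a change of 2.55 ± 0.37 (adjusted p = 0.00066). ALD1 read 21.2 and 26.1 in WT and 36.3 and 88.9 in ddm1, a difference of 1.24 ± 0.78 that did not pass (adjusted p = 0.23). Per kb of exon ALD1 was lowest of all members in each seedling group, and its 2 ddm1 libraries lay further apart than the group means did.

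**Figure D2:**
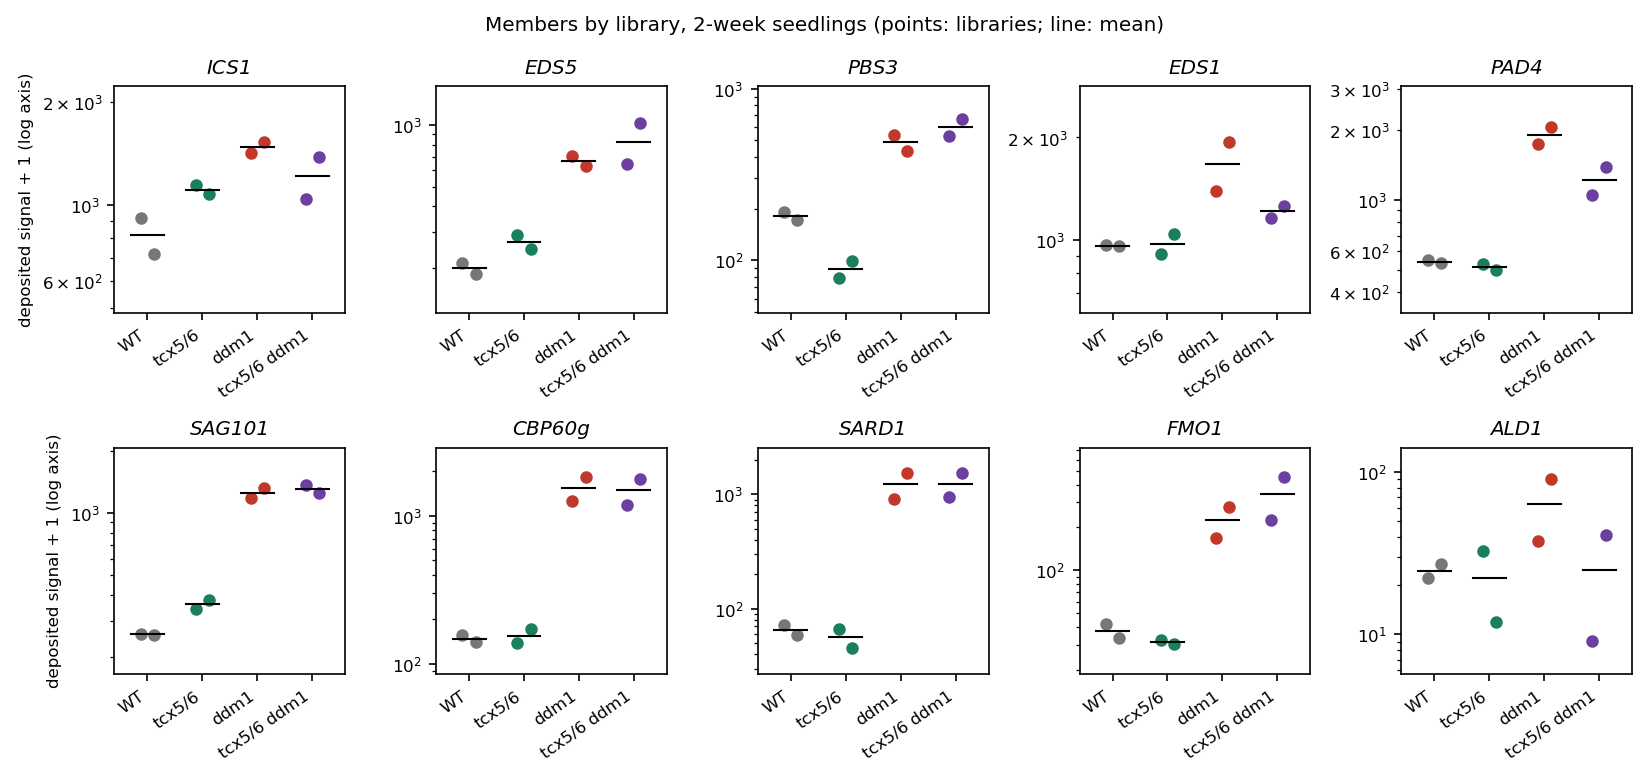
Signal plus 1 (log axis) of each gene in the 8 seedling libraries; points are libraries and bars are group means (n = 2). Both ddm1 libraries lie above both WT libraries for all 10 genes, with SARD1 at 903 and 1535 against 71.1 and 57.4, but ALD1 did not pass the test.

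Libraries of ddm1 and tcx5/6 ddm1 seedlings also stood apart from the other seedlings in their low values. Low values were rounded to multiples of a step fitted to each library. The share at even multiples was 36.0% to 39.5% without the ddm1 mutation and 58.7% to 67.3% with it. The labels name no difference in library type, and what sets this share was not tested. In the comparison of ddm1 with WT it cannot be told apart from the genotype. The same holds for the triple mutant against WT and against tcx5/6. Of 10 clock genes, 6 were higher and 4 lower in ddm1. The morning gene CCA1 read 6975 and 7577 in WT and 802 and 1016 in ddm1, and the evening gene TOC1 read 744 and 675 in WT and 4294 and 4904 in ddm1. The part of harvest time in the rise of the members was not tested. Summed signal of the seed storage list was 2077 in ddm1 replicate 1 and 31.2 in replicate 2, and 9 members were still called higher when either of these libraries was left out.

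Markers of tissue and age also differed between ddm1 and WT seedlings. The shoot meristem list summed to 1846 and 1852 in WT and 928 and 639 in ddm1, with 3 of 10 tested genes lower and 0 higher. The senescence list summed to 2457 and 3279 in WT and 6788 and 5987 in ddm1, with 3 of 6 genes higher and 1 lower. SAG12 of that list was at 0 in both WT libraries and in ddm1 replicate 2. The root list summed to 45966 and 42214 in WT and 32345 and 29413 in ddm1, with 2 of 5 genes lower and 1 higher. The summed photosynthesis signal overlapped between the groups, with 2 of 6 genes higher and 2 lower. The part of these markers in the rise of the members was not tested.

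In ddm1 seedlings the response and receptor genes mostly rose with the members, and other lists around the members were mixed. Of all genes tested 26.3% rose and 23.3% fell. All 10 of 10 salicylic acid response genes rose, with a median change of 4.204, among them PR1, a secreted defence protein (6.47), and WRKY18, a transcription factor (4.56, adjusted p = 1.3e-07). Of 10 genes of immune receptors and their partners 9 rose, including the helper ADR1-L1 (1.55), which acts with EDS1 and PAD4, and NDR1 (1.98). Among 11 perception genes 6 rose and 2 fell. The receptors NPR1, NPR3 and NPR4 rose by 0.83, 1.597 and 0.54, and TGA1 and TGA4 were the members that fell. Of 5 genes of the alternative phenylalanine route, 3 fell (PAL1 by 0.76, PAL2 by 0.86 and PAL4 by 0.90) and 1 rose (AIM1, 0.64). PAL3 did not pass (0.30, adjusted p = 0.0665). Of 9 paralogs of the members 3 rose, 2 fell and 4 did not pass.

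Turnover and regulator genes of the pathway also changed in ddm1, where 26.3% of all genes tested rose and 23.3% fell. Of 8 turnover genes 5 rose, among them DMR6 (1.25) and DLO1 (2.14), the hydroxylases that degrade salicylic acid, and 0 fell. Of 13 tested regulators of ICS1, CBP60g or SARD1, 10 rose and 2 fell, and these counts were not split into activators and repressors. NAC019 and NAC055, which repress ICS1, rose by 2.87 and 3.74. DEL1, an atypical E2F that represses ICS1, read 174 and 151 in WT and 73.1 and 68.9 in ddm1, a fall of 1.18 on the log2 scale. CAMTA3, a repressor of CBP60g and SARD1, rose by 0.99.

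In tcx5/6 seedlings 8 of the 10 genes stayed below the calling threshold. SAG101 rose and PBS3 fell, where 7.26% of all genes tested rose and 4.35% fell (11.6% in all), and the median change of the 10 was -0.03 against 0.00 over all genes. PBS3 read 191 and 171 in WT and 77.6 and 97.8 in tcx5/6, a fall of 1.04 ± 0.19 (adjusted p = 0.0096). SAG101 read 259 and 255 in WT and 343 and 379 in tcx5/6, a rise of 0.49 ± 0.10 (adjusted p = 0.017). The groups did not overlap for either gene, but the calls were marginal. With 1 library left out the change ranged from -1.21 to -0.88 for PBS3 and from 0.42 to 0.56 for SAG101, and fewer genes were called in the whole table. The adjusted p of PBS3 was 0.077 without WT replicate 1, 0.056 without WT replicate 2 and 0.084 without tcx5/6 replicate 1. For SAG101 it was 0.086 and 0.11 without WT replicates 1 and 2, and 0.061 and 0.14 without tcx5/6 replicates 1 and 2.

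The first synthesis steps had higher values in tcx5/6 seedlings without passing the test. ICS1 read 1142 and 1074 in tcx5/6, above both WT libraries, a difference of 0.45 ± 0.15 (adjusted p = 0.10). EDS5 read 289 and 247, a difference of 0.42 ± 0.21 (adjusted p = 0.25). Fitted on the compared groups alone, both were called (adjusted p = 0.0095 and 0.045), so that 3 members rose and 1 fell. EDS1, PAD4, CBP60g, SARD1, FMO1 and ALD1 had values within -0.32 to 0.06 of WT on the log2 scale. Of the 10 salicylic acid response genes only WRKY18 passed (0.75), 0 of 5 phenylalanine route genes and 0 of 8 turnover genes passed, and among receptors RPP4 (-0.76) and SNC1 (-0.31) fell. DEL1 read 324 and 313 in tcx5/6, a rise of 0.97.

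Leaves of tcx5/6 plants carried more RNA of the synthesis genes and their activators than WT leaves. In leaf 7 of 10 members rose and 0 fell, where 21.3% of the 24429 genes tested rose and 21.4% fell (42.6% in all), and the median change was 0.83 against 0.00 over all genes. PBS3 rose most, from 1923 and 2147 to 7417 and 7921, a change of 1.91 ± 0.08 (adjusted p = 8.3e-06). ICS1 rose from 3399 and 3192 to 9129.9 and 9081, a change of 1.47 ± 0.05 (adjusted p = 5.1e-06). EDS5 rose from 2822 and 2779.7 to 5769.9 and 5799.8, a change of 1.05 ± 0.11 (adjusted p = 0.00035). All 3 steps of the isochorismate route were thus higher in both tcx5/6 leaf libraries, with replicates close together.

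Of the activators in leaf, SARD1 rose from 2959 and 2812 to 6146 and 6630.0, a change of 1.15 ± 0.07 (adjusted p = 4.3e-05). CBP60g rose from 12373 and 12067 to 20320.0 and 21889, a change of 0.79 ± 0.07 (adjusted p = 0.00017). Within the node PAD4 rose by 0.79 ± 0.09 (adjusted p = 0.00051) and SAG101 by 0.39 ± 0.06 (adjusted p = 0.0022). EDS1 read 4629 and 4503 in WT and 4538 and 5167 in tcx5/6, a difference of 0.08 (adjusted p = 0.38), and its groups overlapped. FMO1 read 2459.9 and 2707 in WT and 2232 and 2282 in tcx5/6, a difference of -0.19 (adjusted p = 0.65). ALD1 read 1997 and 2026 in WT and 3741 and 3587 in tcx5/6, without overlap, but its difference of 0.86 ± 0.61 did not pass (adjusted p = 0.31) in the fit that shares its spread with the SAM libraries. With the leaf groups alone the adjusted p was 0.00014.

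In SAM samples the synthesis genes split. Against WT, 8 of 10 members rose and 1 fell in tcx5/6, where 15.6% of all genes tested rose and 14.5% fell (30.1% in all), and the median change was 1.03 against 0.00. This count and this median include FMO1, which was near 0 in SAM and whose change is set by the pseudocount. ICS1 rose from 416 and 393 to 1153 and 1159, a change of 1.51 ± 0.05 (adjusted p = 7.3e-06). EDS5 rose from 82.9 and 66.0 to 254 and 246, a change of 1.74 ± 0.11 (adjusted p = 5.4e-05). PBS3 fell from 644 and 656 to 424 and 471, a change of -0.54 ± 0.08 (adjusted p = 0.0023). ICS1 and EDS5 were up and the conjugating enzyme was down in the same libraries, without overlap.

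SARD1 rose in SAM from 332 and 304 to 902 and 961 (1.55 ± 0.07, adjusted p = 1.9e-05), and CBP60g from 231 and 236 to 649 and 573 (1.38 ± 0.07, adjusted p = 2.5e-05). EDS1 rose from 1874 and 1726 to 2489 and 2451 (0.46 ± 0.07, adjusted p = 0.0028). PAD4 and SAG101 rose by 0.65 ± 0.09 and 0.68 ± 0.06. FMO1 was listed at 0 in both WT libraries and read 1.9 and 3.7 in tcx5/6. It was called (adjusted p = 0.0026), but no fold is given against 0, and the call was lost in the fit of the SAM groups alone (adjusted p = 0.10). ALD1 read 1.8 and 0 in WT and 1.9 and 0 in tcx5/6.

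**Figure D3:**
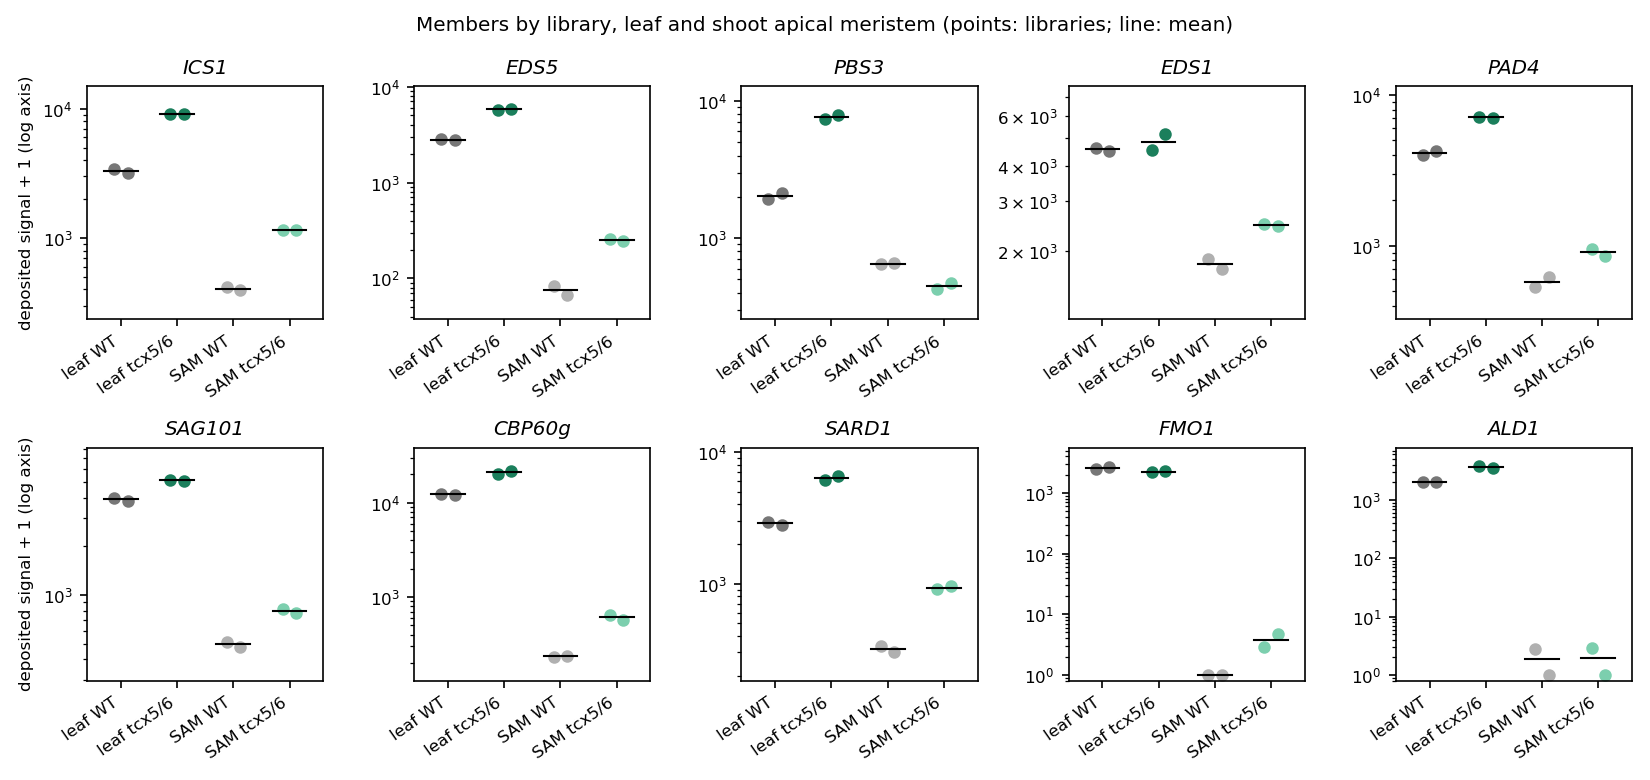
Signal plus 1 (log axis, so that 0 is drawn at 1) of each gene in the 8 leaf and SAM libraries; points are libraries and bars are group means (n = 2). PBS3 lies at 7417 and 7921 in tcx5/6 leaf, above WT leaf, and at 424 and 471 in tcx5/6 SAM, below WT SAM; FMO1 and ALD1 lie at 0 to 3.7 in all 4 SAM libraries.

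Whether the tcx5/6 difference was the same in SAM as in leaf was tested with an interaction term. It was more positive in SAM for 6 members and more negative for 1, where 14.8% and 15.9% of all genes tested were called in those directions (30.7% in all). PBS3 had a term of -2.46 (adjusted p = 4.3e-05). EDS5 (0.70, adjusted p = 0.014), CBP60g (0.59, adjusted p = 0.0049), SARD1 (0.40, adjusted p = 0.023), EDS1 (0.37, adjusted p = 0.029) and SAG101 (0.29, adjusted p = 0.043) were also called. FMO1 was the other gene called (adjusted p = 0.0091), but with WT SAM at 0 the size of its term is set by the pseudocount and is not given here. ICS1 (0.05, adjusted p = 0.69) and PAD4 (-0.14, adjusted p = 0.45) were not. Several of these calls were marginal and lost their threshold with fewer samples, while the terms kept their direction. With 1 library left out the terms ranged from 0.23 to 0.35 for SAG101, 0.28 to 0.47 for EDS1, 0.34 to 0.47 for SARD1 and 0.54 to 0.86 for EDS5. SAG101 lost its call when any library but WT SAM replicate 1 was left out (adjusted p 0.063 to 0.13), and under median-of-ratios scaling (0.25, adjusted p = 0.074). EDS1 lost it without WT leaf replicate 1 or 2, WT SAM replicate 2, or tcx5/6 SAM replicate 1 or 2 (0.066 to 0.098). SARD1 lost it without WT leaf replicate 1, WT SAM replicate 2, tcx5/6 leaf replicate 1 or tcx5/6 SAM replicate 2 (0.052 to 0.080), and EDS5 without tcx5/6 SAM replicate 1 (0.055).

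**Figure D4:**
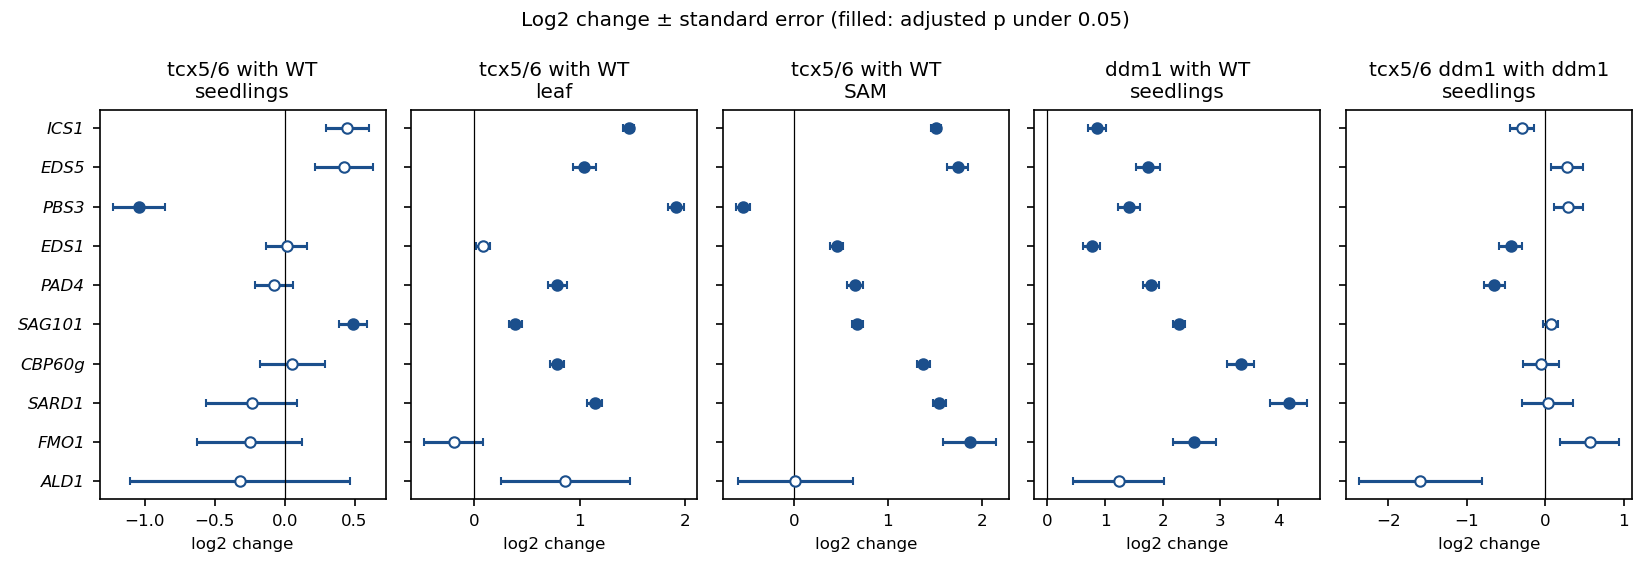
Log2 change ± standard error of each gene in the comparisons named above the panels; filled points have an adjusted p under 0.05, and the position of FMO1 in SAM is set by the pseudocount. PBS3 is at -1.04 in tcx5/6 seedlings, 1.91 in leaf and -0.54 in SAM, while ICS1 is at 1.47 in leaf and 1.51 in SAM.

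Response genes in leaf and SAM rose with the members, and other lists were mixed in leaf. Of all genes tested 21.3% rose and 21.4% fell in leaf, and 15.6% rose and 14.5% fell in SAM. Of 10 salicylic acid response genes 9 rose in leaf and 9 in SAM, and the 1 that did not pass was WRKY18 in leaf (-0.11) and PR1 in SAM (0.64). PR2, a glucanase, changed by 2.26 in leaf and 2.39 in SAM, and PR5 by 3.51 and 1.68. Among 10 genes of immune receptors and their partners 2 rose and 2 fell in leaf, and 5 rose and 0 fell in SAM. Among 11 perception genes 4 rose and 3 fell in leaf, and 5 rose and 0 fell in SAM. The 9 paralogs of the members had 0 higher and 4 lower in leaf, and 3 higher and 1 lower in SAM. Of the 13 tested regulators 4 rose and 6 fell in leaf, and 3 rose and 2 fell in SAM. DEL1 rose by 2.52 in leaf and 0.80 in SAM, so its RNA rose in the same tissues in which ICS1 rose. CAMTA1, CAMTA2 and CAMTA3 fell in leaf by 0.52, 0.48 and 0.61, and EIN3, EIL1 and NTL9 by 0.49, 0.36 and 0.27. NAC019 rose in leaf (0.74) and fell in SAM (-0.87), where NAC055 fell too (-1.03).

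Turnover genes also rose in part. DMR6 rose by 1.45 in leaf and 1.63 in SAM, and DLO1 by 2.04 and 2.53. BSMT1, which methylates salicylic acid, rose by 4.30 in leaf and fell by 1.39 in SAM, the same split as PBS3. The glucosyltransferase gene UGT74F2 fell in both (-0.69 and -0.83). Of the phenylalanine route 3 of 5 genes rose in leaf (PAL1 by 1.05, PAL2 by 0.45 and PAL4 by 1.32) and 2 fell (PAL3 by 0.61 and AIM1 by 0.64). Their summed signal was 27146 and 27664 in WT leaf and 25075 and 27955 in tcx5/6 leaf, with overlap. In SAM 0 rose, and PAL1 and AIM1 fell by 0.49 and 0.32. ICS2, the second isochorismate synthase gene, fell by 1.32 in leaf (adjusted p = 0.00018), opposite to ICS1.

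**Figure D5:**
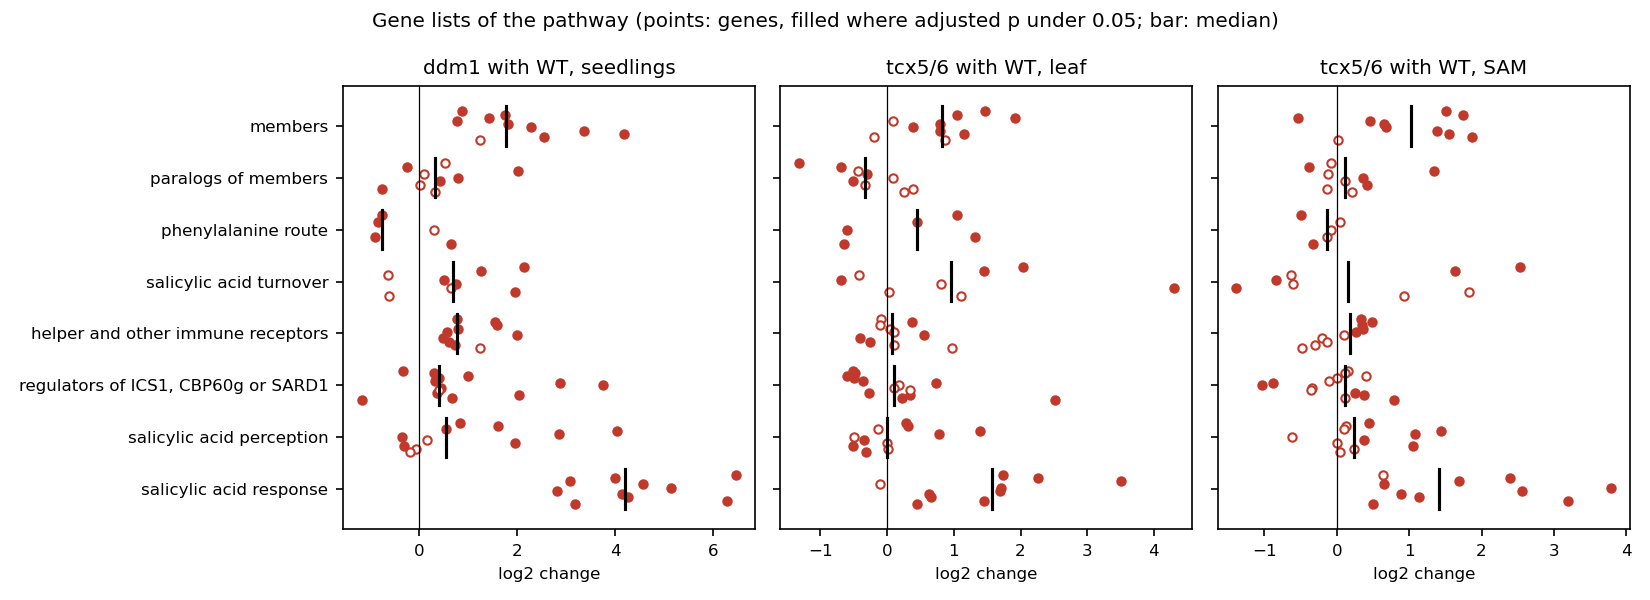
Log2 changes of the pathway lists; each point is a gene, filled where its adjusted p was under 0.05, and the bar is the median of a list. In ddm1 seedlings all 10 salicylic acid response genes lie above 0 with a median of 4.204. In tcx5/6 leaf 9 of that list are filled, and in tcx5/6 SAM 9.

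Tissue markers moved beside these changes. In leaf the summed signal of the senescence list was 42531 and 43728 in WT and 72370 and 74509 in tcx5/6, and SAG13 made up most of it, while SAG12 read 191 and 223 in WT and 210.3 and 178 in tcx5/6. Of the 6 genes of that list 3 rose and 1 fell. The summed photosynthesis signal in leaf was 366652 and 356662 in WT and 416904 and 406786 in tcx5/6. Of the 6 photosynthesis genes 3 rose and 0 fell in leaf. In SAM the summed photosynthesis signal was 762621 and 771722 in WT and 467583 and 479382 in tcx5/6, and 6 of 6 genes of that list fell. Floral organ markers summed to 15119.5 and 14530.0 in WT SAM and 10918 and 10964 in tcx5/6 SAM, with 2 of 6 genes lower and 0 at 0. The part of these markers in the changes of the members was not tested. STM, which marks the shoot meristem, read 1510 to 1713 in SAM and 0 in leaf. The floral gene AP1 read 3360 to 3637 in SAM, so the apices held floral tissue as well as meristem.

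All 10 members were lower in WT SAM than in WT leaf, where 35.6% of all genes tested were lower and 43.2% higher (78.8% in all), with a median of -3.10 against 0.21 over all genes. All 10 were also lower in tcx5/6 SAM than in tcx5/6 leaf, where 35.2% were lower and 43.1% higher (78.2% in all), with a median of -3.54 against 0.20. CBP60g was 12220 ± 216 in WT leaf and 234 ± 3.46 in WT SAM (SD, n = 2), a ratio of 52.3. EDS5 followed with a ratio of 37.6, and EDS1 was least unequal at 2.54. The ratio for PBS3 was 3.13 in WT and 17.1 in tcx5/6. FMO1 and ALD1 read 1997 to 2707 in WT leaf and 0 to 1.8 in WT SAM. Senescence markers summed to 702 to 934 in SAM, far below leaf, with SAG12 at 0, and no age is given for the SAM samples, so tissue and age cannot be told apart. The photosynthesis list went the other way in WT, with sums of 762621 and 771722 in SAM and 366652 and 356662 in leaf. Of its 6 genes, 5 were higher and 1 lower in WT SAM, and 4 higher and 2 lower in tcx5/6 SAM. The part of these markers in the difference was not tested.

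The triple mutant held 8 members above WT and 0 below, where 29.5% of all genes tested rose and 26.4% fell (55.8% in all). The median change of the 10 was 1.86 against 0.02 over all genes. The comparisons of ddm1 and of the triple mutant share the WT libraries. In both, the share of low values at even multiples also differed from WT and cannot be told apart from the genotype. In the triple mutant 6 of 6 photosynthesis genes were lower than in WT, and their summed signal was 792932 and 644920 against 1411780 and 1487120. The root list summed to 19703 and 26411 and the shoot meristem list to 733 and 517, both below every WT library. Of 5 root genes 2 were lower and 1 higher, and of 10 tested meristem genes 4 were lower and 0 higher. The senescence list was higher than in WT, with 3 of 6 genes higher and 1 lower. Of 10 clock genes, 5 were higher and 5 lower than in WT. The part of these markers in the result was not tested. SARD1 read 941 and 1535 in the triple mutant, CBP60g 1189.9 and 1780.5, and SAG101 1365 and 1256, and all 3 overlapped the ddm1 values. FMO1 reached 226 and 454, a rise over WT of 3.11 (adjusted p = 0.00016). ICS1 read 1041 and 1385, a rise over WT of 0.56 (adjusted p = 0.013) that was lost without WT replicate 2 (adjusted p = 0.10) or triple replicate 2 (0.077). EDS1 read 1165 and 1261, a difference from WT of 0.33 (adjusted p = 0.085) that passed with the replicate block (0.042) or the compared groups alone (0.019). ALD1 read 8.1 and 39.6. Against tcx5/6, 7 members rose and 0 fell, where 25.7% of genes rose and 26% fell (51.7% in all), and the median was 1.72 against -0.02. ICS1 was among the others (0.12, adjusted p = 0.55), and so was EDS1 (0.32, adjusted p = 0.10, and 0.045 with the compared groups alone).

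Directly against ddm1, the triple mutant was lower for PAD4 and EDS1 and higher for 0 members, where 21.6% of all genes tested were lower and 17.7% higher (39.3% in all). PAD4 read 1046 and 1384 against 1741 and 2053, a difference of -0.65 ± 0.14 (adjusted p = 0.0063). EDS1 differed by -0.44 ± 0.15 (adjusted p = 0.042), a call that was lost without ddm1 replicate 2 (0.20), triple replicate 1 (0.15) or triple replicate 2 (0.077), at a pseudocount of 0.1 (0.052) and with the compared groups alone (0.09). The other 8 members did not pass, with EDS5 at 0.27, PBS3 at 0.30 and FMO1 at 0.56. Leaving out triple replicate 2 brought ICS1 (-0.50, adjusted p = 0.034) and ALD1 (-2.67, adjusted p = 0.03) past the threshold, and leaving out triple replicate 1 brought EDS5 past it (0.61, adjusted p = 0.025). Among response genes PR1, PR2 and PR5 were higher in the triple mutant than in ddm1 (1.37, 1.31 and 2.098) while WRKY70 was lower (-1.05). The senescence list summed to 5987 and 6788 in ddm1 and 18632 and 22015 in the triple mutant, with 3 of 6 genes higher and 2 lower. The photosynthesis list summed to 1425950 and 1412860 in ddm1 and 792932 and 644920 in the triple mutant. Of its 6 genes, 5 were lower and 0 higher. Of 10 clock genes, 7 were lower and 1 higher. The part of these markers in the differences was not tested.

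Only PBS3 passed the interaction test that asked whether the effect of tcx5/6 depended on ddm1 (1.34 ± 0.26, adjusted p = 0.015), where 5% of all genes tested were more positive and 9.51% more negative (14.5% in all). PBS3 fell in tcx5/6 and not in the triple mutant, which read 532 and 664 against 539.7 and 434.5 in ddm1. Without WT replicate 1 or tcx5/6 replicate 1 the adjusted p was 0.068 or 0.056. ICS1 had a term of -0.75 ± 0.21 (adjusted p = 0.053), which passed under a filter at 20 (0.039) or without triple replicate 2 (0.02). Without a library PAD4 (0.018, triple replicate 2) and EDS1 (0.024, ddm1 replicate 1) passed as well, with negative terms.

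Order of levels across the seedling groups could be read for most members. For EDS5, PBS3, SAG101, CBP60g, SARD1 and FMO1 the triple mutant and ddm1 stood together above the rest with overlapping libraries. For CBP60g and SARD1 the tcx5/6 and WT libraries overlapped as well. For ICS1 the triple mutant overlapped tcx5/6. PAD4 was highest in ddm1, then in the triple mutant, then in WT and tcx5/6, with no overlap between neighbours, and EDS1 was highest in ddm1, then in the triple mutant, above WT and tcx5/6 libraries that overlapped. For ALD1 each group overlapped the next in the order of means.

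The genes with the most similar pattern were found over the 8 group means of log2(signal + 1), centred within each table, among 18925 genes, by root-mean-square difference. For ICS1 they were AT1G62320 (0.265), TIN1 (0.266) and DMR6 (0.282), and the nearest other member was PAD4 (0.483). For EDS1 they were AT5G49760 (0.0488), AT5G57580 (0.0709) and AT5G25050 (0.0741). AT5G57580 is CBP60b, which is among the listed paralogs of the members. For FMO1 they were MYB2 (0.411), CML41 (0.417) and AT1G13520 (0.430), while ALD1 stood at 1.13. These are descriptions over 8 points that share libraries.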

How the data were processed

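RNA-seq signal was analysed from 16 Arabidopsis libraries, in 1 table of seedlings and 1 of leaf and SAM. The deposited values are signal, gene-level read counts scaled by the authors so that library totals are comparable. HISAT2, edgeR and TAIR10 are named per the submitters' processing notes; their versions, the annotation and the strandedness of counting are not stated there. Because values are not counts, no count test was run. Low values of the 2 replicates of a group depended on each other, and the depth behind them is unknown. Tissue was taken from sample titles, since another label calls every library a seedling.

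Separate fits for the 2 tables used limma 3.58.1 (R 4.3.3; limma-trend on log2(signal + 1), a pseudocount of 1, genes at 1 or more in at least 2 libraries, all 8 libraries, 1 coefficient per group, Benjamini-Hochberg over all genes, called at an adjusted p under 0.05). Values below 1e-06 were read as 0. Code was tested on simulated data. Python 3.11.15, pandas 2.3.3 and matplotlib 3.10.9 made summaries and figures. The members and lists were chosen with earlier results of these data known. Named genes were all members, and from each list those with the smallest p among called genes, plus members needed to describe a list. Promoters are the 250 bases before the annotated start in TAIR10.1. Alternatives were no filter, a filter at 20, median-of-ratios scaling, a pseudocount of 0.1, the compared groups alone, the replicate block, and leaving out each library.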

Additional observations from a re-analysis of the deposited data

Results flagged for a closer look

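The effect of tcx5/6 differed between groups for 7 members when SAM was set against leaf, by the interaction term on the log2 scale. The terms were 0.70 for EDS5, -2.46 for PBS3, 0.37 for EDS1, 0.29 for SAG101, 0.59 for CBP60g, 0.40 for SARD1 and 2.06 for FMO1. The FMO1 term is no measure of size, since both WT SAM libraries were at 0, and it was 4.96 at a pseudocount of 0.1. In seedlings the effect of tcx5/6 differed with ddm1 for PBS3, with a term of 1.34.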

How the results depend on the processing

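Over 110 results for single genes, each recomputed under the alternatives, 1085 of 1160 values kept direction and side of the threshold, 35 lost a call, 13 gained one and 27 changed sign. Of those 27, 0 were called before or after. The 9 members called in ddm1, the 7 in leaf and all 10 lower in SAM kept their number when any library was left out. The replicate numbers did not pair the samples (r of replicate differences -0.0459 to 0.103 in seedlings, -0.0806 to 0.0224 in leaf and SAM); with the replicate block EDS1 was called in the triple mutant against WT (adjusted p = 0.042).

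The number of members called between tcx5/6 and WT seedlings was 2, 4 with the compared groups alone and 0 to 1 without a library. Between the triple mutant and ddm1 it was 2, 1 at a pseudocount of 0.1 or with the compared groups alone, and 1 to 3 without a library. The seedling interaction had 1, 2 under a filter at 20 and 0 to 3 without a library, and the tissue interaction had 7 and 4 to 7. Over all genes, the tcx5/6 seedling comparison called 2905, 6508 with the compared groups alone and 988 to 1313 without a library. The triple mutant against ddm1 called 9832 and 6497 with the compared groups alone. The seedling interaction called 3632 and 1280 to 1559 without a WT or tcx5/6 library. Without a WT SAM library, SAM called 4675 and 4751 in place of 7356 and the tissue interaction 4738 and 4983 in place of 7501. The causes were not tested beyond the smaller number of samples in these fits.

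Sign changes concerned differences near 0. Without 1 library, EDS1 between tcx5/6 and WT seedlings ranged from -0.0857 to 0.12 (-0.007469 under median-of-ratios scaling), CBP60g from -0.10 to 0.21, SARD1 from -0.52 to 0.0446 and ALD1 from -1.04 to 0.40. In the triple mutant, ALD1 ranged from -1.44 to 0.73 against WT and from -1.12 to 1.05 against tcx5/6, and ICS1 from -0.0898 to 0.32 against tcx5/6. Against ddm1, EDS5 ranged from -0.0561 to 0.61, SAG101 from -0.0125 to 0.15, CBP60g from -0.34 to 0.24 and SARD1 from -0.35 to 0.41. The seedling interaction ranged from -0.48 to 0.18 for EDS5, -0.40 to 0.18 for CBP60g and -0.12 to 0.65 for SARD1. EDS1 in leaf ranged from -0.008834 to 0.18, ALD1 in SAM from -0.75 to 0.79, and the tissue interaction of ICS1 from -6.107e-05 to 0.0905.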
